A study of Canis lupus familiaris with 11 samples.

Results

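Gene expression was compared between 2 preparations of canine stromal vascular fraction (SVF), the cell pellet left when fat tissue is digested. One preparation was made by company C and the other by company A, from portions of the visceral fat of a single dog, a neutered male Labrador of 6 years. Each portion weighed about 20 g, was digested by the company's own proprietary procedure, frozen there for about 1 month and thawed in the investigators' laboratory for RNA extraction. Neither preparation had been treated. The comparison was defined by the array titles and takes 2 of the 11 Affymetrix arrays of the series, 1 for each company. The other arrays came from the portion sent to company B (1 array) and from dogs 2 and 3 (8 arrays). Dogs 2 and 3, both labelled as neutered male German Shepard mixes of 10 years, had visceral fat digested by a single company, and their cells were taken either after photo-activated platelet-rich plasma (PRP) and 6 h at 37 °C or without incubation. With 1 array per company there was no replicate, and size and direction are given without a test. The company, its digestion, its freezing and the journey of its portion cannot be told apart.

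SVF holds stromal cells and their progenitors, endothelial and perivascular cells, mesothelium where the fat is visceral, macrophages, lymphocytes and mast cells, together with blood cells that were not washed out. The stromal share is what veterinary cell therapy aims to deliver. Digestion, cold, freezing and thawing are known to induce stress genes in such cells, among them the immediate early transcription factors, heat shock proteins and cytokines. Platelets carry RNA from megakaryocytes although they have no nucleus, so their transcripts are found in any preparation that keeps them.

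Defining markers of the labelled tissue were read first. DCN, the matrix proteoglycan decorin, had a level of 13.07 in company C and 13.16 in company A, in log2 units and above the upper quartiles of these arrays (7.06 and 7.07). The endothelial adhesion molecule PECAM1 stood at 9.18 and 8.62 and CSF1R, the receptor for the main macrophage growth factor, at 9.03 and 9.07, in companies C and A in that order. EPCAM, an epithelial adhesion molecule, had a level of 2.51 on both arrays, below their lower quartiles (3.58 and 3.66). Over 15947 genes the company C and company A levels correlated with r = 0.989, across genes that share both arrays and are not replicates.

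Of these genes, 193 were at least 2-fold higher in company C (1.21%) and 68 at least 2-fold lower (0.426%), which makes 261 in either direction (1.64%). The deposited values were identical on both arrays for 7341 genes (46%), which had a difference of exactly 0. Of the others 4482 were higher in company C and 4124 lower. Identical values were most frequent at low levels: with genes split by level into 4 bins of equal size, they made up 73.6% of the lowest bin and 19.6% of the highest. The median difference over all genes was 0, and 95% of genes lay between -0.60 and 0.72 log2 units. The only measure of spread between arrays came from dogs 2 and 3, where a group had 2 arrays. Between the 2 arrays of a group, 1.11% to 4.73% of genes were at least 2-fold apart. That set was taken to have been normalized separately, and its labels mention no freezing. The share of genes at least 2-fold apart between companies C and A lay inside this range. It was above the untreated pairs (1.39% in dog 2 and 1.11% in dog 3) and below the PRP-treated ones (1.84% and 4.73%). It also counts the 7341 identical genes, whereas those pairs had 1 to 4 identical genes each.

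**Figure D1:**
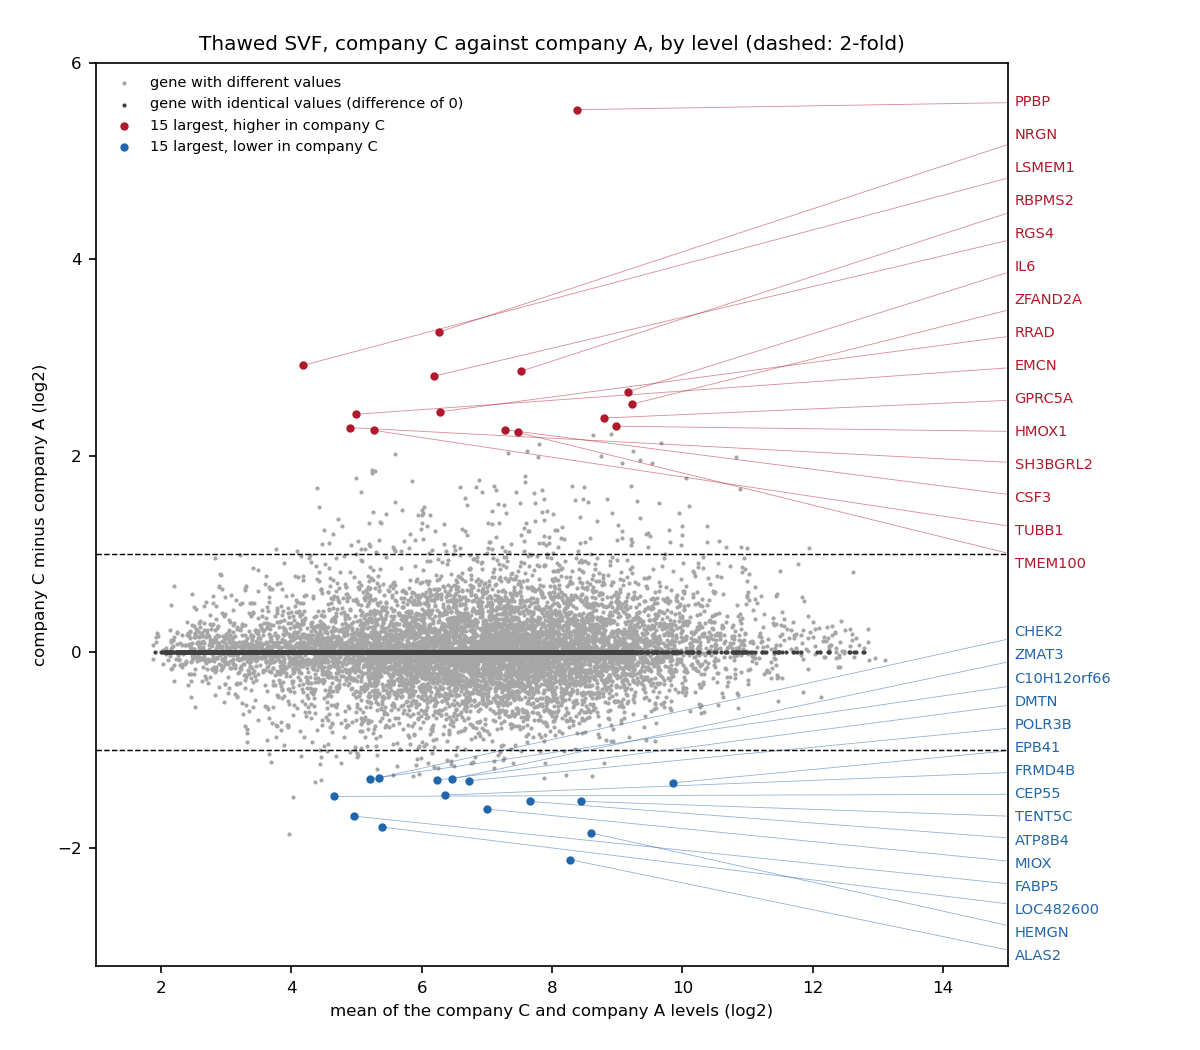
Difference between company C and company A (log2, vertical axis) against the mean level of both (log2, horizontal axis) for 15947 genes, 1 array per company. Red points are the 15 genes farthest above 0 and blue points the 15 farthest below 0 among genes whose higher level passed its array's median. PPBP, at 5.52, lies apart from all others, and the 7341 genes with identical values form the dark line at 0.

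The gene farthest apart was PPBP, which encodes the platelet chemokine precursor that gives rise to NAP-2. Its level was 11.14 in company C and 5.62 in company A, a 46-fold difference. The array of company A lay near its own median there (5.31), and that of company C well above its upper quartile. Next came NRGN (neurogranin, a calmodulin-binding protein of neurons and platelets) at 7.89 in company C against 4.63 in company A, a 9.57-fold difference. LSMEM1, a small membrane protein, stood at 5.63 against 2.72, RBPMS2, an RNA-binding protein of smooth muscle, at 8.95 against 6.09, and RGS4, a brake on G protein signalling, at 7.59 against 4.78. These 5 genes had the widest differences of all those considered, in either direction.

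The other 10 of the 15 leading genes were between 4.71-fold and 6.28-fold higher in company C. They held the cytokines IL6 (10.50 in company C against 7.84 in company A) and CSF3, the neutrophil growth factor G-CSF (8.41 against 6.15). Genes of stress were HMOX1, haem oxygenase (10.14 against 7.84), and ZFAND2A, a zinc finger protein induced by heat and arsenite (10.49 against 7.97). Both were above the upper quartile on either array. Genes of vessels were EMCN, the endothelial sialomucin endomucin (6.21 against 3.79), and TMEM100, a membrane protein of endothelium (8.59 against 6.36). RRAD, a small GTPase, had 7.50 against 5.05, GPRC5A, an orphan receptor, 9.99 against 7.61, SH3BGRL2 6.04 against 3.75, and TUBB1, the tubulin of the platelet's marginal band, 6.40 against 4.14. For 7 of the 15, the company A level lay below the median of its array, and the deposited values do not say which signals were above background.

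The platelet list stood highest of the 37 gene lists. Of its 10 measured members, 7 were at least 2-fold higher in company C, 0 at least 2-fold lower and 1 identical, with a median difference of 1.19, against 0 over all genes and a share of 1.21% of all genes at least 2-fold higher. Beside PPBP, NRGN and TUBB1 these included SELP, the adhesion molecule P-selectin (6.15 in company C against 4.75 in company A), GP9, a subunit of the von Willebrand factor receptor (8.26 against 7.04), and ITGA2B, the platelet chain of the fibrinogen receptor (5.91 against 4.77). ITGB3, the receptor's other chain, which many cell types share, differed by 0.23 (8.66 against 8.43). The 2 chains of that receptor thus lay unequally far apart. The summed linear level of the list, on a log2 scale, was 12.23 in company C and 10.71 in company A. No gene was listed at 0 on either array, whose lowest values were 1.22 in company C and 1.33 in company A. As these are bulk samples, more platelets and more RNA per platelet cannot be told apart, and the same holds for each cell type below.

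PRP with incubation in dogs 2 and 3 gives a reference for these genes, since it adds platelets by design. PPBP was 3.26 log2 units higher in PRP-treated than in untreated cells of dog 2, and 2.16 in dog 3 (means of 2 arrays each). NRGN differed by -0.15 and -0.03 there, TUBB1 by 0.38 and 0.24, GP9 by -0.26 and 0.09, and ITGA2B by 0.14 and -0.02, in dogs 2 and 3 in that order. SELP differed by 0.62 and 0.08. PPBP was thus the 1 gene of these that stood over 1 log2 unit higher both in company C and after PRP. The comparisons share no array and were processed apart, and the difference between them was not tested. In untreated cells of dogs 2 and 3, on their own scale, PPBP lay between 6.65 and 7.74 and NRGN between 8.01 and 8.52.

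Genes of S100 proteins, which neutrophils and monocytes use to bind calcium and zinc, were also higher in company C. S100A8 and S100A9 encode calprotectin. S100A9 had 8.86 in company C and 6.74 in company A, S100A8 8.48 and 6.68, and S100A12 8.34 and 6.32. TREM1, a receptor that amplifies myeloid activation, had 7.77 and 6.70. These 4 were the only members of the neutrophil list at least 2-fold apart. The list's other members did not share this: 9 of its 18 were identical, and its median difference was 0. CSF3R, the G-CSF receptor that defines the cell, differed by 0.21 (5.98 against 5.78). The summed level of the list was 11.02 against 10.12.

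**Figure D2:**
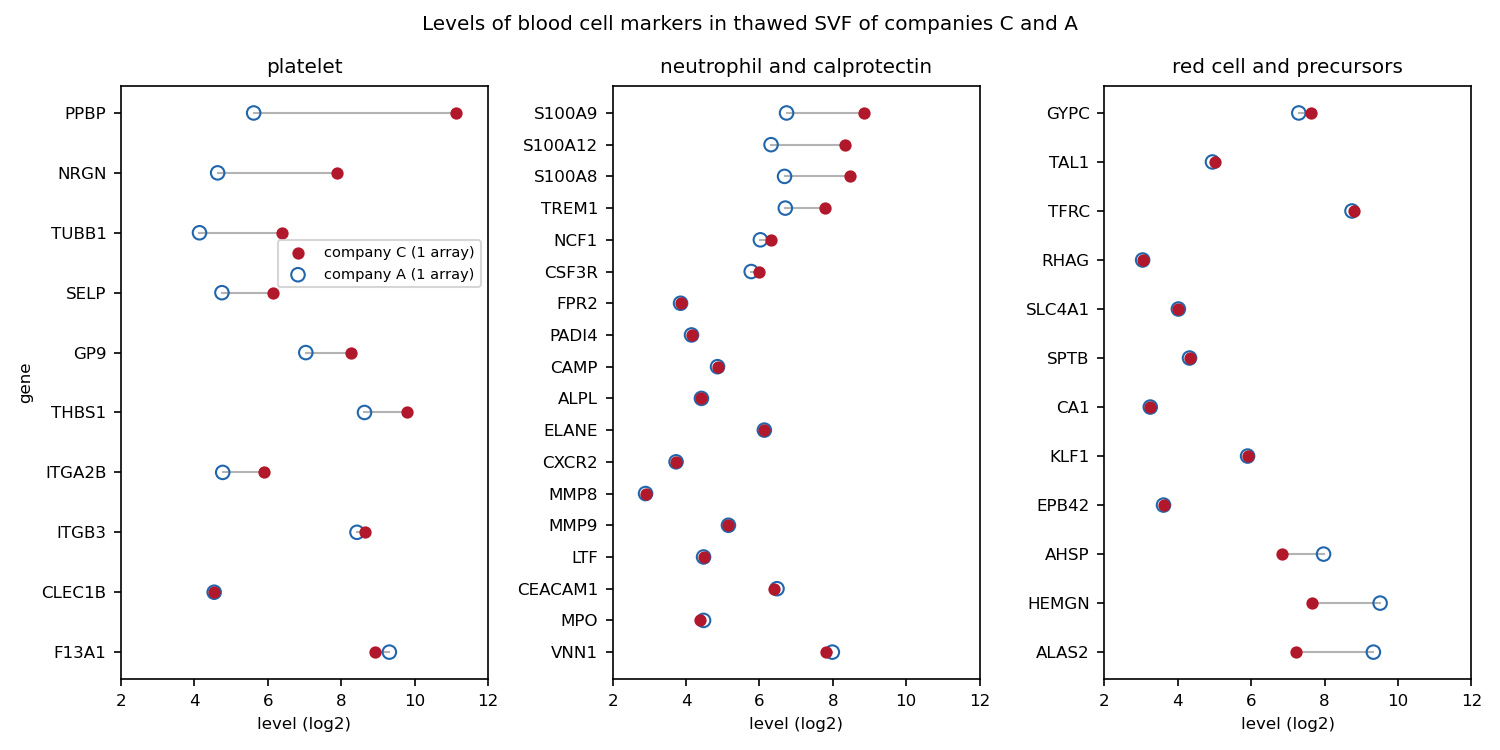
Levels (log2, horizontal axes) of the measured members of 3 blood cell lists, with company C as filled red and company A as open blue circles, 1 array each. In the platelet panel 7 of 10 members lie at least 2-fold higher in company C. In the red cell panel ALAS2, HEMGN and AHSP lie at least 2-fold lower in company C, and in the neutrophil panel 4 of 18 members lie higher.

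A few red cell genes were lower in company C. ALAS2, the enzyme that begins haem synthesis in red cell precursors, was the gene farthest below 0, at 7.22 in company C and 9.33 in company A (4.34-fold lower). HEMGN, a nuclear protein of red cell precursors, followed at 7.67 and 9.52 among genes whose higher level passed its array's median. AHSP, the chaperone of alpha globin, stood at 6.84 and 7.97. EPB41 and DMTN, which encode protein 4.1 and dematin of the red cell membrane skeleton, were outside the list and among the 15 genes farthest below 0, at 9.20 in company C against 10.53 in company A and at 5.58 against 6.89. They were picked from that ranking. In untreated cells of dogs 2 and 3, on their own scale, EPB41 lay between 10.44 and 10.78 and DMTN between 7.56 and 8.89. There ALAS2 lay between 7.11 and 7.60, HEMGN between 5.78 and 6.08 and AHSP between 3.94 and 4.37. Which cells carried EPB41 and DMTN was not tested. Of the 12 listed genes measured, 3 were lower, all of them at least 2-fold, 3 were higher, none of them 2-fold, and 6 were identical, so that the median was 0. The identical ones included the membrane proteins SLC4A1 (band 3) and EPB42, both at low levels (4.02 and 3.61). GYPC, a glycophorin that other cells also express, was 0.34 higher (7.64 against 7.30). The summed level was 10.32 in company C and 11.21 in company A. Globin genes were not analysed here.

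The remaining genes among the 15 farthest below 0 belonged to no single list. FABP5, a fatty acid carrier, had 4.12 in company C against 5.79 in company A. MIOX, which breaks down myo-inositol, had 6.21 against 7.81, ATP8B4, a lipid flippase, 6.90 against 8.42, and TENT5C, a poly(A) polymerase, 7.69 against 9.21. Their differences were between -1.67 and -1.52. FRMD4B, a scaffold protein, stood at 5.64 against 7.09 and CEP55, a protein of the final step of cell division, at 3.92 against 5.39. POLR3B, a subunit of RNA polymerase III (6.07 against 7.38), ZMAT3, a p53 target (5.83 against 7.12), CHEK2, a DNA damage kinase (4.70 against 5.98), C10H12orf66 (4.55 against 5.85) and LOC482600 (4.49 against 6.28) completed the set. Among named genes the downward differences were smaller than the upward ones: 1 gene was at least 4-fold lower, and 24 were at least 4-fold higher. Features that name no gene or several went the other way and are given at the end.

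Immediate early genes, the transcription factors and feedback genes induced within minutes by growth factors, stress or handling, were higher in company C nearly throughout. Of 29 measured members 25 were higher, 3 lower and 1 identical, with 10 at least 2-fold higher, 0 at least 2-fold lower and a median of 0.84. Over all genes 1.21% were at least 2-fold higher and 0.426% at least 2-fold lower. FOS had a level of 11.45 in company C and 10.78 in company A, FOSB 10.69 and 9.79, JUN 11.23 and 10.74, and JUNB 10.94 and 9.82. These are subunits of the AP-1 transcription factor, and JUNB was the 1 of the 4 at least 2-fold apart. The widest differences were those of IER3, an anti-apoptotic early gene (10.34 against 8.38), BTG2, an antiproliferative one (10.49 against 8.57), ATF3, a stress transcription factor (11.71 against 10.05), and MYC (9.25 against 7.69). The other 21 members differed by between -0.71 and 1.49. In 22 of the 29, company C was highest, company A next and company B lowest. The same order held in 16 of 28 cytokine and chemokine genes and in 14 of 20 NF-kappaB genes. Its share over all genes was not counted, so these counts do not show that the order was particular to these lists. The summed level of the immediate early list was 15.58 in company C and 14.71 in company A. The platelet list moved with it, and its part in this result was not tested.

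Heat shock genes were higher as well, in 15 of 19 measured members, with 2 lower and 2 identical. CRYAB, a small heat shock protein, had 9.75 in company C and 7.75 in company A, and BAG3, a co-chaperone, 8.68 and 7.03. DNAJB1, the Hsp40 partner of Hsp70, had 10.41 and 9.17, HSPH1, a large Hsp70 relative, 9.79 and 8.68, and HSP90AA1, the inducible Hsp90, 10.52 and 9.43. The constitutive HSP90AB1 differed by 0.02 (10.44 against 10.41). These 5 heat-inducible genes were the members at least 2-fold apart, and the median was 0.48. That median was 0.24 when all features of a gene were averaged. The rest of the list lay between -0.10 and 0.59.

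The unfolded protein and integrated stress response, which slows translation and restores amino acid supply, had 21 of 24 members higher, 1 lower and 2 identical, with a median of 0.32. Its transcription factor DDIT3 (CHOP) stood at 9.11 in company C and 7.74 in company A, SESN2, a stress-induced regulator of growth signalling, at 6.29 and 5.16, and SLC7A11, the cystine transporter, at 7.61 and 6.49. These 3 were the members at least 2-fold apart. ATF4, the pathway's central factor, differed by 0.52 (12.13 against 11.61). Of the NRF2 list, 13 of 17 were higher and 3 at least 2-fold so, with a median of 0.15. HMOX1 was the widest apart, and SRXN1, which repairs oxidised peroxiredoxin, stood at 7.67 against 6.36. The classical NRF2 targets GCLM (0.23), TXNRD1 (0.24) and GCLC (-0.12) were not 2-fold apart. Of 17 p53 and apoptosis genes, 4 were at least 2-fold higher and 1, ZMAT3, at least 2-fold lower (median 0.27). The cell cycle inhibitor CDKN1A had 10.58 in company C against 9.40 in company A, and PMAIP1, the death gene NOXA, 9.63 against 8.21. MDM2, which p53 also induces, differed by -0.17.

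Among inflammatory cytokines and chemokines, 19 of 28 measured members were higher in company C, 6 lower and 3 identical, with a median of 0.52. At least 2-fold higher were 5 and at least 2-fold lower 1. IL6 and CSF3 led, followed by PTGS2, the inducible cyclooxygenase (11.82 in company C against 9.84 in company A), and CXCL10, an interferon-induced chemokine (7.67 against 5.99). The first-line cytokines were closer together. IL1B had 8.83 and 8.34, CXCL8 12.59 and 12.28, and TNF 8.65 and 8.88, in companies C and A in that order. TNF thus lay slightly lower in company C while IL6 lay 6.28-fold higher. NF-kappaB and its feedback genes were higher in 15 of 20 members (median 0.17), and BCL3, a nuclear partner of NF-kappaB, was the 1 member at least 2-fold apart (8.53 against 6.91). The subunits NFKB1, NFKB2 and RELB differed by 0.10, 0.00 and 0.06. Of 26 interferon response genes 12 were identical, 7 higher and 7 lower (median 0). ISG15, a ubiquitin-like modifier (7.97 against 6.32), IRF1 (9.69 against 8.46) and CXCL10 were at least 2-fold higher, while IFIT2 and IFI44L were identical on both arrays.

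**Figure D3:**
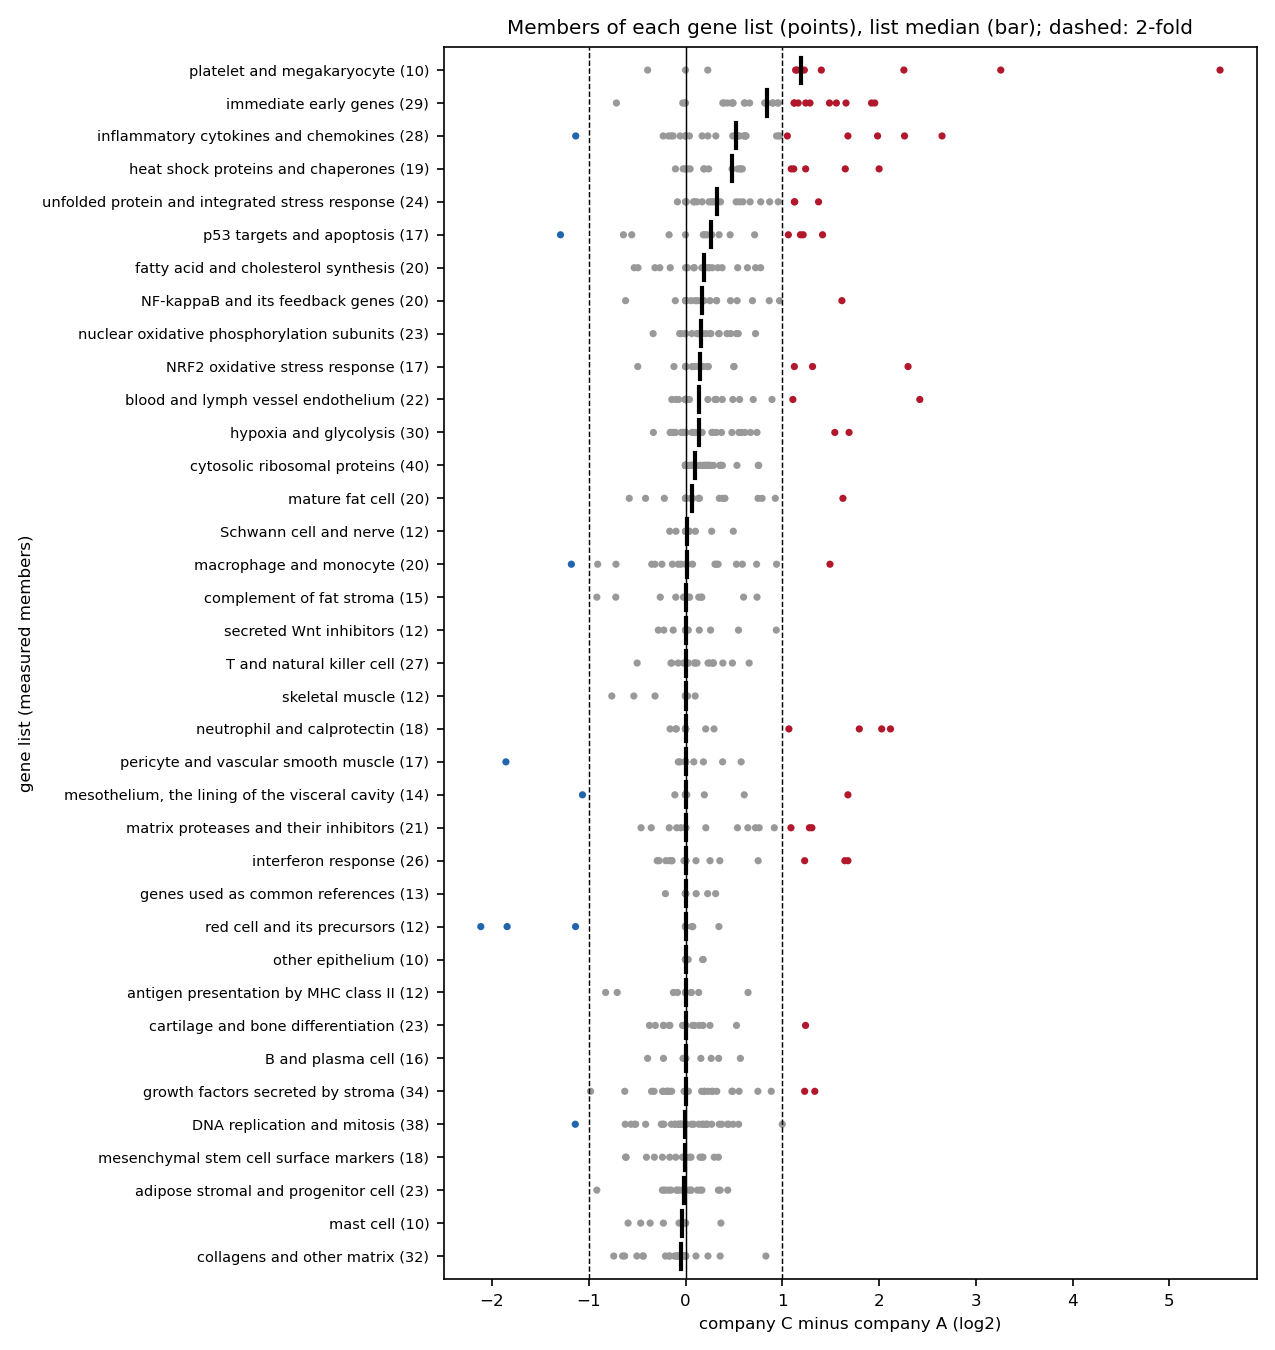
Difference between company C and company A (log2, horizontal axis) for the measured members of the 37 gene lists, 1 array per company, in order of the list median (black bar). Red points are members at least 2-fold higher in company C and blue points members at least 2-fold lower. Medians run from 1.19 for the platelet list to -0.05 for collagens and other matrix, and most lie near the all-gene median of 0.

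Macrophage markers were split. CD163, the haemoglobin scavenger receptor of resident macrophages, was lower in company C (6.51 against 7.69), and MRC1, the mannose receptor of the same cells, differed by -0.91 (9.13 against 10.03). FCGR1A, a high-affinity antibody receptor, was higher (7.45 against 5.95), as was CD68 without reaching 2-fold (8.46 against 7.72). ADGRE1, the F4/80 antigen, differed by 0.94. Over 20 measured members 10 were higher, 9 lower and 1 identical, with a median of 0.01 and summed levels of 13.07 and 13.06. The balance of the list was thus close to even although single members lay over 1 log2 unit apart in each direction.

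The lists of lymphocytes, mast cells and antigen-presenting cells held no member at least 2-fold apart. Over all genes the share was 1.64%, so none in lists this short does not set these cells apart. Members with identical values, among them 9 of the T and NK list, had a difference of exactly 0. T and NK markers had a median of 0 over 27 members, with CD3E at 6.46 in company C against 6.60 in company A, CD3D at 6.51 against 6.12 and CD2 at 6.77 against 7.27. B and plasma cell markers had a median of 0 over 16 members, 8 of them identical. MHC class II genes had a median of 0 over 12, and their invariant chain CD74 had 11.79 on both arrays. DLA-DRA, a class II chain that all antigen-presenting cells carry, had 12.29 and 12.23. Mast cell markers had a median of -0.04 (0.01 with each array centred on its median) over 10 members, 6 of them lower, with KIT, the receptor of the mast cell growth factor, at 4.77 against 5.23 and the protease CPA3 at 6.14 against 6.50.

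Genes of the stroma, the cells for which SVF is used, had a median difference near that of all genes, which was 0. Of 23 stromal and progenitor markers 0 were at least 2-fold apart in either direction, and the median was -0.02 (0.03 with each array centred on its median). Over all genes 1.64% were at least 2-fold apart, so a count of 0 in a list of this size does not set the stroma apart. PDGFRA, the receptor that marks adipose progenitors, had 9.96 in company C and 10.16 in company A, and DPT (dermatopontin) 10.73 and 10.56. The widest difference was that of C7, a complement component of fibroblasts, at 7.15 and 8.07. Mesenchymal stem cell surface markers had a median of -0.01 over 18 members and 0 at least 2-fold apart, a count with the same limit. THY1 (CD90) stood at 11.73 against 11.39, NT5E (CD73) at 6.07 against 6.08, ENG (CD105) at 8.31 against 8.25 and CD44 at 10.79 against 10.75. VCAM1 and ITGA4, an adhesion molecule and the integrin chain that binds it, differed by -0.62 and -0.61.

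Collagens and other matrix genes had 20 of 32 members lower in company C, 4 higher and 8 identical, with a median of -0.05 (0.00 with each array centred on its median) and 0 members at least 2-fold apart. The share over all genes was 1.64%. LAMA2, a laminin chain, had 8.93 against 9.56 and COL5A3 6.16 against 6.81. POSTN (periostin) went the other way, at 8.51 against 7.68, and COL1A1 differed by 0.36 where COL1A2, the other chain of the same collagen, was identical at 11.11. Of the matrix protease list, PLAU, the urokinase plasminogen activator (10.64 in company C against 9.36 in company A), SERPINB2, its inhibitor PAI-2 (7.73 against 6.42), and ADAMTS4, an aggrecanase (8.46 against 7.37), were at least 2-fold higher. The collagenase MMP1 and the stromelysin MMP3 were identical at low levels (3.43 and 3.71), and MMP2 was identical at 11.71.

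Of 34 growth factors 2 were at least 2-fold higher and 0 lower (median 0). Both were ligands of the EGF receptor family, HBEGF (8.40 in company C against 7.07 in company A) and EREG (6.82 against 5.59). The vessel growth factors VEGFA, VEGFB and VEGFC differed by 0.27, 0.17 and -0.23. PDGFB, a mural cell attractant, differed by -0.98 (4.58 against 5.56). Cartilage and bone genes had a median of 0 over 23 members, and HAPLN1, a link protein of cartilage matrix, was the 1 at least 2-fold apart (5.12 against 3.88, both below the array medians). Complement genes had a median of 0.01 over 15 members. Secreted Wnt inhibitors had a median of 0 over 12, with FRZB (6.88 against 5.94) the widest apart and SFRP4 at 11.79 against 11.65.

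Endothelial markers were higher in company C in 12 of 22 members, lower in 3 and identical in 7 (median 0.14, summed level 11.38 against 11.04). Among genes above the array median the list median was 0.04. EMCN and MMRN1, a protein of lymphatic endothelium and platelets (5.13 against 4.02), were at least 2-fold higher. Both levels of MMRN1 were below the array medians. CDH5, the cadherin of endothelial junctions, differed by 0.89 (7.64 against 6.74), and PECAM1 by 0.56. KDR, a VEGF receptor, had 6.91 against 7.01, and VWF was identical at 5.86. Among pericyte and smooth muscle markers 10 of 17 were identical and the median was 0. ACTG2, the actin of visceral smooth muscle, was lower (3.03 in company C against 4.89 in company A), with both levels below the array medians, while the vascular actin ACTA2 differed by 0.38 (6.79 against 6.40). Mesothelial markers had a median of 0 over 14 members. CALB2 (calretinin) was higher (7.43 against 5.75) and PKHD1L1 lower (4.15 against 5.22, both below the array medians), with UPK3B differing by 0.61. Mature fat cell genes were higher in 13 of 20, lower in 3 and identical in 4 (median 0.07), and CIDEA, a lipid droplet protein, was the 1 at least 2-fold apart (5.88 against 4.25). ADIPOQ (adiponectin) differed by 0.79 and PLIN1 by 0.35. CDH2 (N-cadherin), a junction protein of mesenchymal cells, had 5.15 against 5.39 by one feature, while another of its features lay 1.49 higher in company C.

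Schwann cell and nerve, other epithelium and skeletal muscle genes had 0 members at least 2-fold apart, against 1.64% of all genes, with medians of 0.01, 0 and 0. Of metabolic genes, HK2, the inducible hexokinase (7.96 in company C against 6.27 in company A), and ADM, the vasodilator adrenomedullin (9.12 against 7.58), were the members of the hypoxia and glycolysis list at least 2-fold higher (19 of 30 higher, median 0.14). Fatty acid and cholesterol synthesis genes had 0 of 20 at least 2-fold apart (median 0.19), with HMGCS1 at 7.84 against 7.06. Oxidative phosphorylation subunits had 17 of 23 higher, 3 lower and 0 at least 2-fold apart (median 0.16). Counts of 0 in these lists stand beside the share of 1.64% over all genes. Cytosolic ribosomal proteins had 27 of 40 higher, 0 lower and 13 identical (median 0.10), with RPL30 the widest apart (9.79 against 9.03). Of the DNA replication and mitosis list, 17 members were higher and 19 lower (median 0.00), MKI67, the proliferation marker Ki-67, was at least 2-fold lower (5.87 against 7.01), and UBE2C, an enzyme of mitotic exit, just missed 2-fold in the other direction (8.42 against 7.42). Common reference genes had 9 of 13 identical and a median of 0, with ACTB at 12.15 against 11.92.

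The sizes were then set against the gap between 2 arrays of one group in dogs 2 and 3, gene by gene, on that set's own scale. Of the 193 genes at least 2-fold higher in company C, 168 differed by more than the widest such gap of the same gene, and of the 68 lower ones 61 did. Over all genes the share was 11.3%. That base is low by construction, since it holds the 7341 identical genes, whose difference of 0 cannot exceed any gap. Genes chosen for a wide difference pass such a comparison more readily, so these counts describe and do not test. PPBP had a widest gap of 0.65 against its difference of 5.52, NRGN 0.45 against 3.26, ZFAND2A 0.33 against 2.52 and ALAS2 0.33 against -2.12. All 7 platelet genes at least 2-fold apart passed, as did 9 of 10 immediate early genes and 5 of 5 heat shock genes. IL6 did not: its widest gap was 2.72 against 2.65. CSF3 (2.43 against 2.26), HMOX1 (2.61 against 2.30), SLC7A11 (4.13 against 1.12), SERPINB2 (3.91 against 1.31), EREG (1.57 against 1.23), FCGR1A (1.52 against 1.49), MKI67 (1.67 against -1.14) and AHSP (1.54 against -1.14) likewise lay within the gap seen between arrays of a group. The gaps were taken over untreated and PRP-treated pairs alike, whereas both company preparations were untreated. Untreated arrays of dogs 2 and 3 spanned less than this for CSF3 (7.63 to 8.89), HMOX1 (8.69 to 9.84) and SLC7A11 (7.37 to 8.21). So they did for SERPINB2 (5.39 to 7.26), FCGR1A (6.73 to 7.94) and AHSP (3.94 to 4.37). In all of these but SERPINB2 the company difference was wider than the untreated span. The widest gaps of these genes thus came from PRP-treated pairs. For S100A9 the gap was 1.86 against 2.12, and for CD163 1.13 against -1.18.

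**Figure D4:**
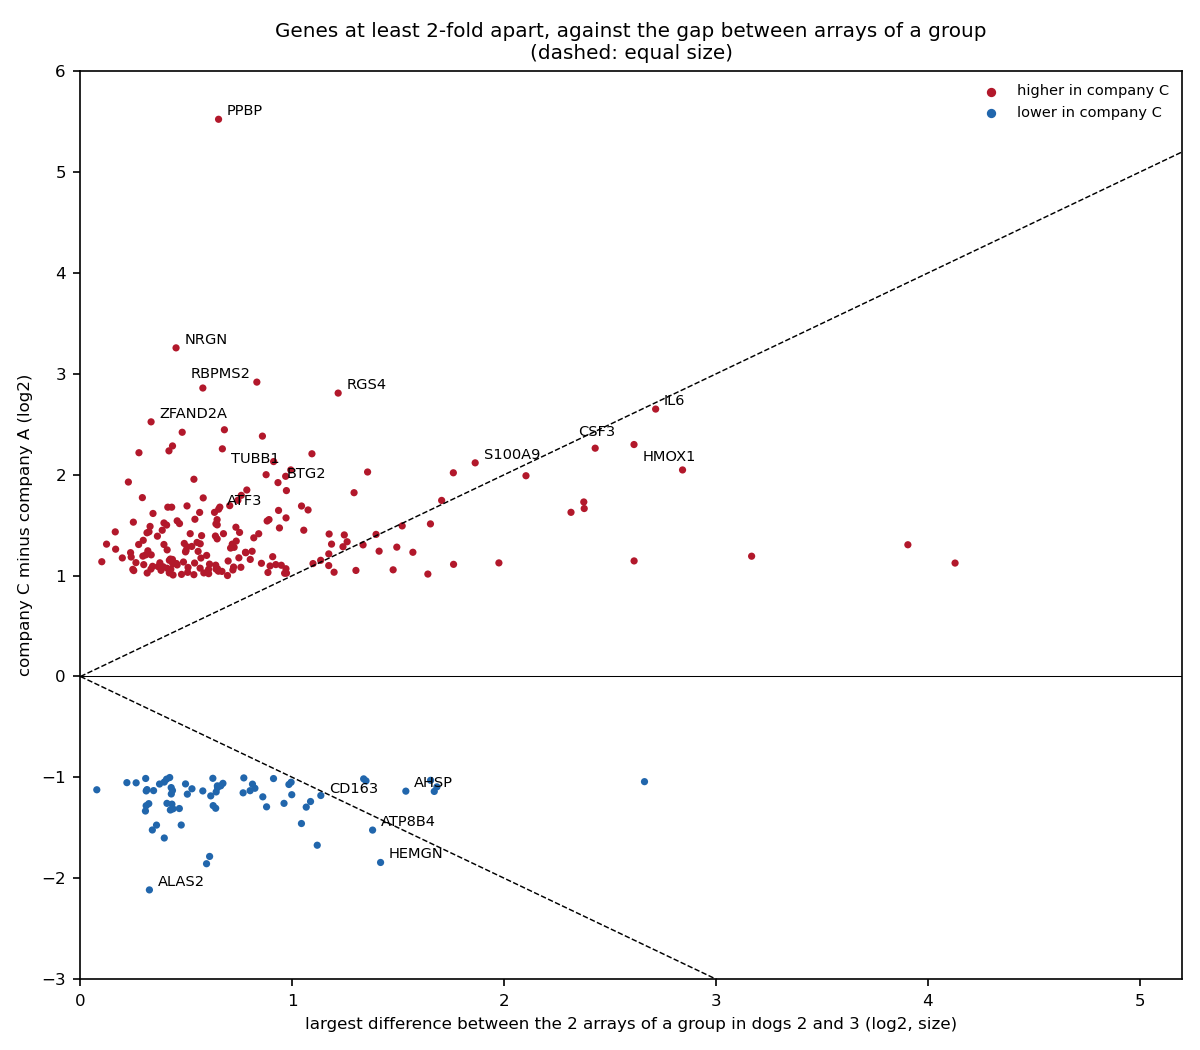
Difference between company C and company A (log2, vertical axis) for the 261 genes at least 2-fold apart, against the widest gap between the 2 arrays of a group in dogs 2 and 3 (log2, size, horizontal axis). Above the upper and below the lower dashed line the company difference is the larger, as in 168 of 193 genes higher in company C (red) and 61 of 68 lower (blue). PPBP and NRGN lie far above the line, and IL6, CSF3 and HMOX1 lie under it.

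The company B array, which entered no difference, was set beside the others. Over all genes it lay below both in 19.8%, between them in 5.23% and above both in 28.5%. It was on the company C value in 39.4%, in part shared by company A, and on the company A value alone in 7.02%. Where companies C and A had identical values (46% of genes), company B could not lie between them. The 5.23% is therefore no base for the between counts of genes at least 2-fold apart. Of the 193 genes higher in company C, company B lay below both in 102, between them in 60, above both in 25 and on the company A value in 6. Of the 68 lower ones, it lay below both in 28, between in 19, above both in 14, on the company A value in 4 and on the company C value in 3. For PPBP the company B level was 5.08, near company A, and likewise for NRGN (5.06) and TUBB1 (4.36). For these 3 genes company B lay nearer to company A. For HMOX1 (9.50) and CRYAB (9.37) company B lay near company C, and both C and B were above A in 13 of 17 NRF2 genes. The same held in 17 of 24 unfolded protein and integrated stress response genes. It also held in 17 of 23 oxidative phosphorylation genes and 14 of 20 fatty acid and cholesterol synthesis genes. In 22 of 40 ribosomal and 17 of 38 replication and mitosis genes it held too, against 0 of 20 macrophage and 0 of 27 T and NK genes. The order was thus not particular to stress genes, and its share over all genes was not counted. For IL6 (3.77), PTGS2 (5.52) and ATF3 (7.40) company B lay well below both. For ALAS2 (4.11) and HEMGN (4.24) it also lay below both, so these red cell genes were highest in company A and lowest in company B.

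Few genes were measured by more than 1 feature. Of those at least 2-fold higher 3 had several, of which 1 was at least 2-fold higher in all of its features. Of those at least 2-fold lower 9 had several, of which 0 were so in all features and 2 were lower in all. The genes named above as at least 2-fold apart rested on 1 feature each, except PKHD1L1. Its features lay between -1.07 and 0.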

How the data were processed

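Total RNA of 11 canine SVF samples was hybridised to Affymetrix arrays, with biotinylated cRNA made from 6 µg of RNA per the labels. The deposited log2 values of 32391 features were used as the authors gave them. Partek is named without a version in the submitters' processing notes, and the sources used here do not state the summarization, normalization or genome build. Features were named through the platform annotation: 16545 had 1 gene, 370 several and 15476 none. Each of 15947 genes was represented by its brightest feature, judged by the mean in dogs 2 and 3. Differences are company C minus company A, and genes at least 2-fold apart were counted with no test and no p-value, since each company had 1 array. The small number of arrays limits the precision. Genes with identical values were counted apart. Genes named in the text were drawn from the 15 farthest in each direction among those above the array median in the higher company, the first 4 measured members and the 4 widest differences of each list, and CDH2 and TUBB1. Not all of these are named. The comparison, genes and lists were chosen with earlier results of these data known. Alternatives were another fold limit, other scalings, another choice of feature, a filter on low levels and leaving out identical values. The counting was tested on simulated data.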

Additional observations from a re-analysis of the deposited data

How the results depend on the processing

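No paired analysis was possible because each company had 1 array and no test was made. At a limit of 1.5-fold, 640 genes were higher in company C and 431 lower. At 4-fold these were 24 and 1, and company B lay below both in 100% of that 1 lower gene. The neutrophil median was 0.29 among genes above the array median, and also 0.29 with identical values left out. The red cell median was -0.57 among genes above the array median and -0.54 with identical values left out. Both were 0 with all members. The heat shock median was 0.24 with all features of a gene averaged. Of 12 genes with several features, 25% had the same direction in all, against 8.33% that were at least 2-fold apart in all. The other 65 values of the main results under the alternatives stayed within the limits set for a shift. Among the 31 other lists, 15 of 216 medians moved by over 0.1, all under a filter on level or with identical values left out. Above the array median the fat cell median was 0.35. The endothelial median was 0.04 there, a move of less than 0.1. With identical values left out, the endothelial median was 0.32, the mast cell median -0.23, the growth factor median 0.17, the ribosomal median 0.21 and the matrix protease median 0.54. Medians near 0 changed sign with scaling: with each array centred on its median, stromal markers were at 0.03, mesenchymal surface markers at 0.04, mast cell markers at 0.01, matrix genes at 0.00 and the replication list at 0.05. With quantile normalization of companies C and A the complement median was -0.01. Centring added the same 0.05 to every difference, since the array medians were 5.31 in company A and 5.25 in company C. The cause of the other shifts was not tested beyond what each alternative changes or leaves out.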

Other observations

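Features that name no gene or several genes were kept out of every count above. Of these 15846 features, 483 were at least 2-fold higher in company C and 1033 at least 2-fold lower, while 5603 had identical values on both arrays. Their differences ran from -5.47 to 4.05 log2 units. Lower values thus outnumbered higher ones there, whereas among the 15947 named genes 193 were higher and 68 lower. Over all 32391 features 682 were at least 2-fold higher and 1112 at least 2-fold lower. What these features measure was not analysed here.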
